A study of Mus musculus with 16 samples.

Results

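The 10 genes of the unfolded protein response, Herpud1, Manf, Xbp1, Atf3, Atf4, Atf6, Hspa5, Ddit3, Creld2 and Sdf2l1, were followed here in the left ventricle of old mice with and without past pregnancies. They are the rows of the count tables that carry these symbols, 10 genes of 55487 in each table. The symbol Ddit3 stands on 2 rows, and the second (ENSMUSG00000116429.1), whose 105 exon bases lie inside the first on the same strand, held 0 counts in all 16 libraries, so the first (ENSMUSG00000025408.15) was used. All 10 genes passed the filter on low counts in every comparison.

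The hearts came from 8 multiparous C57Bl/6J mice, each with more than 3 pregnancies, and from 8 virgin C57Bl/6J mice. All were 24 months old, and no group received a treatment. Each library holds RNA from the middle of 3 sections of the ventricle, taken after flushing the heart with cold saline. The names of the multiparous libraries carry the code MP (multiparous 3, 4, 6 and 8) or P (multiparous 1, 2, 5 and 7), and the labels do not say what either code means. All virgin libraries carry the code AA, so parity and library code cannot be told apart. The sources used here give neither the number of pregnancies per animal nor the time since the last. The labels count mice by group without saying that each library is a separate animal, so each p-value reflects only how far the libraries spread.

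The endoplasmic reticulum folds the proteins that a cell secretes or places in membranes. When unfolded proteins build up there, a set of membrane sensors starts the unfolded protein response: IRE1 splices the Xbp1 messenger RNA, PERK slows translation while favouring that of ATF4, and ATF6 is cut to release a transcription factor. These factors raise chaperones and the machinery that removes misfolded proteins, and prolonged stress brings in DDIT3 (CHOP), a factor tied to cell death. In heart muscle the response has been studied in ischemia, hypertrophy and heart failure. Gene counts as deposited give the amount of each transcript. They do not separate spliced from unspliced Xbp1, and they see neither the cutting of ATF6 nor the translation of ATF4.

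Libraries held between 34560606 and 58890976 gene counts each, except virgin 8, which held 228325238. Levels are given as CPM, each gene's count relative to the library's gene counts after TMM scaling. The Atf3 row, the lowest of the 10, held 93 to 515 reads per library. The 10 markers of cardiomyocytes together made 83960 to 102600 CPM in multiparous and 76830 to 108100 CPM in virgin hearts, led by Ttn and Myh6, so the tissue label fits its markers. In such bulk samples, fewer cells of a type and less RNA per cell cannot be told apart. All 10 genes are protein coding. In GRCm38, with the strand and identifier in parentheses, the transcription factors lie at the following places: Xbp1 at chr11:5520659-5525893 (plus, ENSMUSG00000020484.19), Atf6 at chr1:170704674-170867771 (minus, ENSMUSG00000026663.6), Atf4 at chr15:80255184-80257541 (plus, ENSMUSG00000042406.8), Atf3 at chr1:191170296-191218039 (minus, ENSMUSG00000026628.13) and Ddit3 at chr10:127290774-127296288 (plus, ENSMUSG00000025408.15). The chaperones and other targets lie at these: Hspa5 at chr2:34771970-34777547 (plus, ENSMUSG00000026864.13), Sdf2l1 at chr16:17130138-17132383 (minus, ENSMUSG00000022769.9), Creld2 at chr15:88819646-88826683 (plus, ENSMUSG00000023272.4), Manf at chr9:106838312-106891979 (minus, ENSMUSG00000032575.16) and Herpud1 at chr8:94386438-94395377 (plus, ENSMUSG00000031770.16). Manf shares 14 of its 3524 exon bases with Rbm15b on the same strand and 312 with genes on the other strand. Ddit3 shares 81 of 1713 exon bases with genes on the other strand. The sources used here do not state the strand setting of the counting, so a few reads of these genes may come from their neighbours.

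Promoters of 8 of the 10 genes were found among RefSeq promoter windows of GRCm38.p6, and those of Atf6 and Manf were not used here. They are shown because the response is known to act through short promoter elements, and several of the genes described below carry one in the 250 bases before their RefSeq start. The endoplasmic reticulum stress response element ERSE, searched as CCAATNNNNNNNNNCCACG on both strands, is bound by the CCAAT factor NF-Y and by ATF6. It was found in 2 of the 8 promoters, Hspa5 and Creld2, and in 0.113% of 32851 promoter windows. The shorter ERSE-II, searched as ATTGGNCCACG, was found in Herpud1 and in 0.0304% of the windows. The matches are in capitals, 5′ to 3′ on the strand of the gene:
Hspa5 ERSE, chr2:34772020-34772048, plus strand: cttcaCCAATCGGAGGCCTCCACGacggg
Creld2 ERSE in the reverse orientation, chr15:88819515-88819543, plus strand: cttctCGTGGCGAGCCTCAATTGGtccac
Herpud1 ERSE-II, chr8:94386368-94386396, plus strand: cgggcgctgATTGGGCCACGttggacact
The matches begin 65, 126 and 52 bases before the RefSeq start of Hspa5, Creld2 and Herpud1, in that order. The Hspa5 match lies inside an exon of the GENCODE M21 annotation, which places the gene's first base further upstream. Each of these matches holds a CCAAT box (CCAAT on either strand), which by itself was found in 6 of the 8 promoters and in 33.8% of all windows.

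Another element, the C/EBP-ATF element through which ATF4 acts, was searched as TGATGNAA on both strands. It was found in Atf3 and Herpud1 and in 3.45% of the windows, both times in the reverse orientation and with the same 8 letters, shown in capitals:
Atf3, chr1:191183425-191183454, minus strand: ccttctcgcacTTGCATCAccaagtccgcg
Herpud1, chr8:94386306-94386335, plus strand: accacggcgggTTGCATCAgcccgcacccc
The core of the unfolded protein response element, TGACGTGG, occurred in 0 of the 8 promoters and in 0.563% of all windows, and the cAMP response element TGACGTCA in 0 of 8 and in 1.55%. The Atf3 match lies inside the GENCODE M21 span of the gene given above, outside its exons. The RefSeq start used for Atf3 is therefore internal to that span. A match is a description of letters, and these data did not measure binding.

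The 10 transcripts differed widely in level. Per kilobase of exon, Hspa5, the main chaperone of the endoplasmic reticulum (BiP), stood highest at 129 ± 22.9 CPM per kilobase (SD, n = 16). Herpud1, a membrane protein of the degradation complex, followed at 65.3 ± 10.7, and Atf6 at 27.8 ± 2.66 CPM per kilobase. The ranges of these 3 genes overlapped neither each other nor that of the next gene. Below them came Atf4 at 21.1 and Xbp1 at 18.9 CPM per kilobase, whose ranges overlapped and of which Atf4 was the higher in 12 of 16 libraries. Manf (11.1), Creld2 (6.18), Sdf2l1 (4.53), Ddit3 (2.87) and Atf3 (1.59 CPM per kilobase) closed the order, each with a range that overlapped that of its neighbours. Over the 16 libraries Atf4 had the lowest coefficient of variation, 7.80%, and Atf3 the highest, 46.2%.

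**Figure D1:**
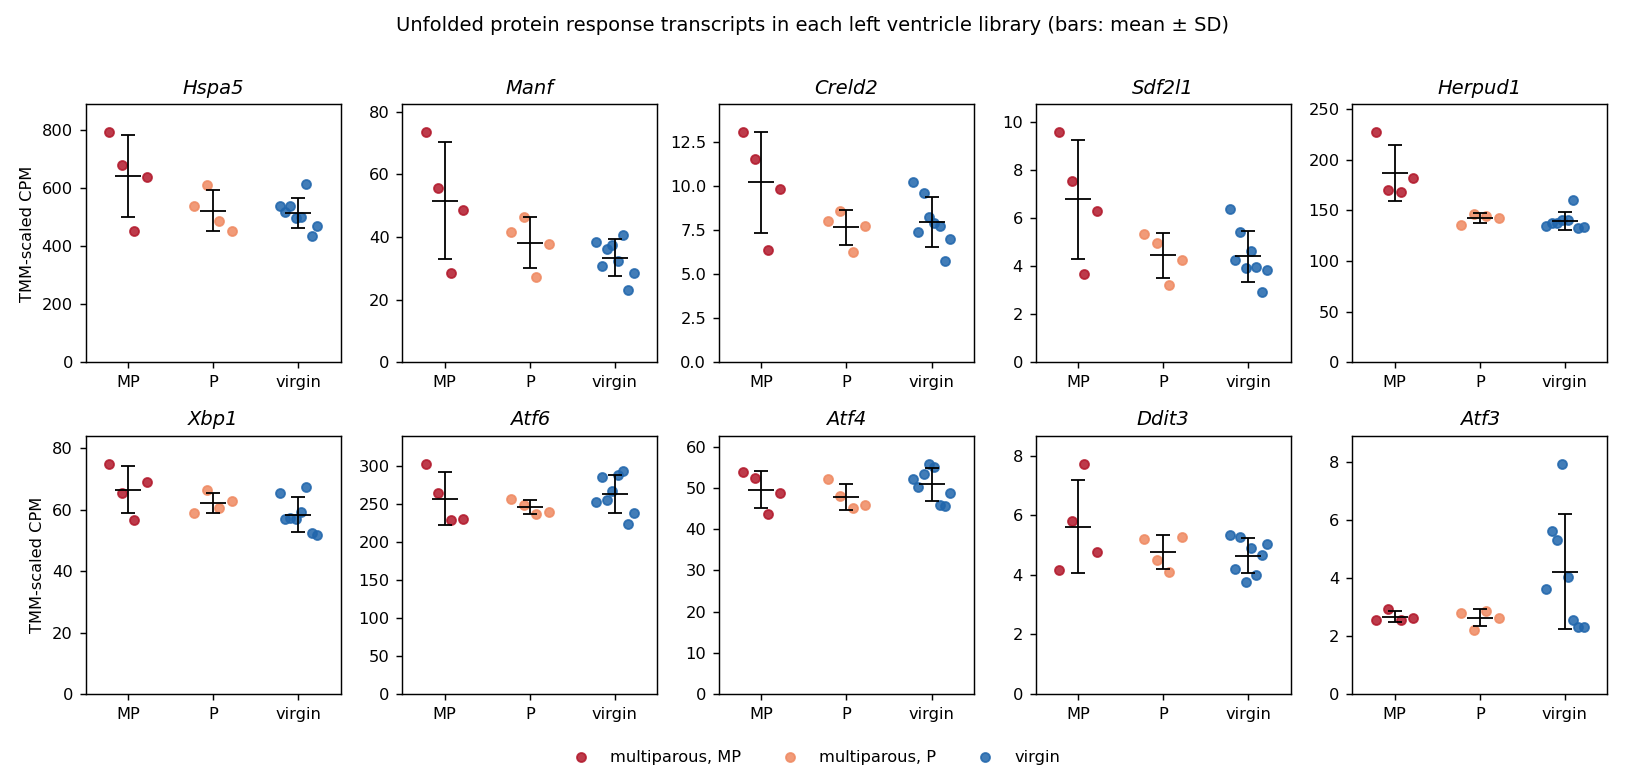
TMM-scaled CPM of the 10 genes in each library (points), with MP-coded multiparous, P-coded multiparous and virgin hearts side by side and black bars for mean ± SD (n = 4, 4 and 8). Every axis starts at 0; the MP points of Herpud1 lie above all P and virgin points, and the virgin points of Atf3 spread from 2.31 to 7.94 CPM.

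Multiparous hearts were first compared with virgin hearts, the comparison the study was designed for. Herpud1, Manf and Xbp1 had higher levels and Atf3 lower levels in multiparous hearts at an unadjusted p under 0.05, but no gene of the 10 passed the threshold over all genes tested (edgeR quasi-likelihood F-test, Benjamini-Hochberg adjusted p under 0.05). Of the 17813 genes tested, 2 passed it, or 0.0112%. An unadjusted p under 0.05 was reached by 4 of the 10 genes, against 8.12% of all genes tested. In all, 7 of the 10 had a log2 fold change above 0, with a median of 0.16, against 48.6% of all genes and a median of -0.003 over all genes. The 10 genes were chosen with earlier results of these data known. Here and below, such shares therefore describe the genes and test nothing.

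Among the factors that drive the response, Xbp1, the target of IRE1 splicing, measured 56.7 to 75.1 CPM in multiparous hearts with a median of 64.2, against 51.7 to 67.3 CPM with a median of 57.2 in virgin hearts. The groups overlapped, and 7 of 8 multiparous libraries lay above the virgin mean, with a log2 fold change of 0.14 (SE 0.062, edgeR adjusted p = 0.579).

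Atf6, the factor released from the membrane, measured 229 to 303 CPM with a median of 244 in multiparous hearts and 223 to 293 CPM with a median of 261 in virgin hearts. Atf4, the factor made when PERK slows translation, measured 43.6 to 53.9 CPM with a median of 48.3 in multiparous hearts and 45.6 to 55.9 CPM with a median of 51.1 in virgin hearts. For both genes the ranges nearly coincided, and log2 fold changes were -0.06 for each, with a 95% interval of -0.20 to 0.07 for Atf6 (edgeR adjusted p = 0.851) and -0.17 to 0.05 for Atf4 (edgeR adjusted p = 0.824).

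Atf3, an early stress factor induced downstream of ATF4 and by many other stimuli, measured 2.21 to 2.94 CPM in multiparous hearts with a median of 2.62. In virgin hearts it measured 2.31 to 7.94 CPM with a median of 3.82. The multiparous libraries were close together, with an SD of 0.228 CPM against 1.98 CPM in virgin hearts, and all 8 lay below the virgin mean. Virgin 6, 7 and 8, at 2.56, 2.32 and 2.31 CPM, lay among them, while virgin 4 was the highest. The log2 fold change was -0.66 (SE 0.22, 95% interval -1.13 to -0.20, edgeR adjusted p = 0.358). It was -0.46 without virgin 4 (adjusted p = 0.593). The summed level of 12 immediate early genes was also highest in virgin 4, at 334 CPM, and ranged from 201 to 267 CPM in multiparous and from 195 to 334 CPM in virgin hearts. Its part in the Atf3 difference was not tested.

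Ddit3, which encodes the death-linked factor CHOP, measured 4.10 to 7.75 CPM in multiparous hearts with a median of 4.99 and 3.77 to 5.35 CPM in virgin hearts with a median of 4.78. Only multiparous 6 and 4, at 7.75 and 5.83 CPM, exceeded the highest virgin library. Its log2 fold change was 0.16 (SE 0.12, edgeR adjusted p = 0.798), and 0.05 without multiparous 6 (adjusted p = 0.954).

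Among the chaperones and secreted targets, Manf, a small secreted protein of the reticulum that protects neurons and heart cells, had the largest positive fold change of the 10 genes. It measured 27.2 to 73.5 CPM in multiparous hearts with a median of 43.9, against 23.2 to 40.7 CPM with a median of 34.2 in virgin hearts. Of the multiparous libraries, 5 lay above every virgin one, and multiparous 5 and 6 lay below the virgin median, for a log2 fold change of 0.43 (SE 0.17, edgeR adjusted p = 0.514), and 0.29 without multiparous 3 (adjusted p = 0.568).

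Herpud1 measured 135 to 227 CPM in multiparous hearts with a median of 157, against 133 to 161 CPM with a median of 138 in virgin hearts. Of the multiparous libraries, 7 lay above the virgin mean and 4, all coded MP, above the highest virgin library. Multiparous hearts averaged 165 ± 30.1 CPM, against 139.8 ± 8.95 CPM for virgin hearts (SD, n = 8 each), with a log2 fold change of 0.24 (SE 0.086, 95% interval 0.06 to 0.42, edgeR adjusted p = 0.429). It was 0.16 without multiparous 3 (adjusted p = 0.438).

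Hspa5 measured 451 to 792 CPM in multiparous hearts with a median of 574, against 436 to 613 CPM with a median of 509 in virgin hearts (a log2 fold change of 0.18, SE 0.11, edgeR adjusted p = 0.724). Sdf2l1, a co-chaperone that acts with BiP, measured 3.22 to 9.59 CPM with a median of 5.16 in multiparous hearts and 2.95 to 6.37 CPM with a median of 4.12 in virgin hearts (a log2 fold change of 0.34, SE 0.20, edgeR adjusted p = 0.723). Creld2, a secreted protein with isomerase-like activity, measured 6.26 to 13.1 CPM with a median of 8.31 in multiparous hearts and 5.74 to 10.2 CPM with a median of 7.80 in virgin hearts (a log2 fold change of 0.16, SE 0.15, edgeR adjusted p = 0.835). For all 3 the groups overlapped, with 2 or 3 multiparous libraries above every virgin one. Without multiparous 3 the log2 fold changes were 0.10, 0.19 and 0.06 for Hspa5, Sdf2l1 and Creld2 (adjusted p = 0.783, 0.795 and 0.929).

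A single library weighed on most of these values. Multiparous 3 was the highest of all 16 libraries for 7 of the 10 genes and had a median rank of 1, while virgin 7 was the lowest for 6. Multiparous 6, also coded MP, had a median rank of 14 and was the highest only for Ddit3. Without multiparous 3, 2 of the 10 genes had an unadjusted p under 0.05, in place of 4. Multiparous 3 also had the lowest share of reads assigned to no gene, 26.5%, where the highest of the 16 libraries was 33.1%. The part of that share in these values was not tested.

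**Figure D2:**
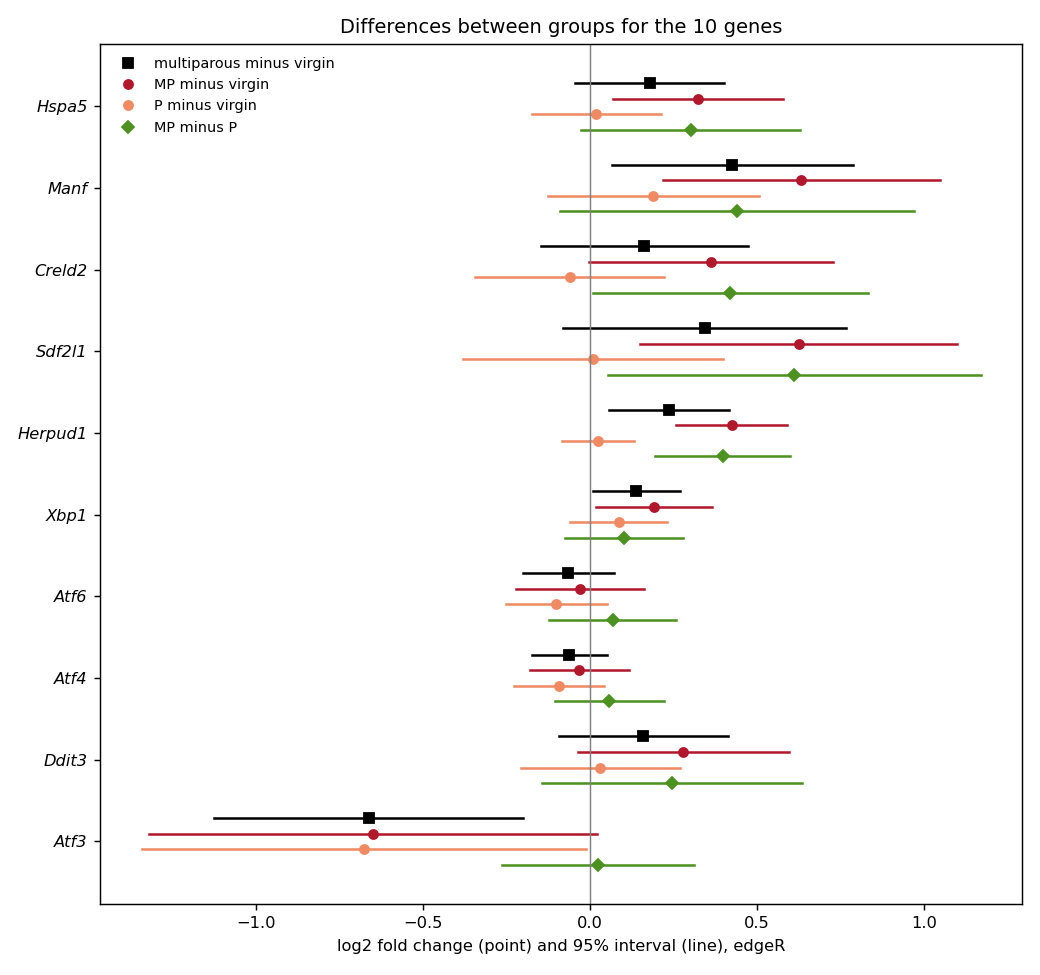
Log2 fold change (points) with 95% interval (lines) of the 10 genes in 4 comparisons, from edgeR, genes from top to bottom. MP against virgin hearts gave values of 0.62 or more for Manf and Sdf2l1, P against virgin hearts gave -0.10 to 0.19 except for Atf3 at -0.68, and the 3 comparisons with virgin hearts share the virgin libraries.

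The multiparous hearts were then set apart by library code. Between MP and P hearts, all 10 genes had log2 fold changes above 0, against 50.6% of all genes tested, and their median was 0.27 against 0.00 over all genes. Several of these genes varied closely together and 7 were highest in multiparous 3, so they are not separate observations. None of the 10 passed the threshold (edgeR adjusted p under 0.05), against 22 of 18123 genes tested, or 0.121%. An unadjusted p under 0.05 was reached by Herpud1, Creld2 and Sdf2l1, 3 of 10, against 11.0% of all genes. Without multiparous 3 that count was 1, and it was also 1 without multiparous 4, 5 or 7. It was 6 without multiparous 6.

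Herpud1 measured 227, 170.2, 168 and 182 CPM in the MP hearts (multiparous 3, 4, 6 and 8), against 135, 147, 145 and 143 CPM in the P hearts (multiparous 1, 2, 5 and 7). The 2 sets did not overlap, which held with MP higher for 2.96% of all genes tested. MP hearts averaged 187 ± 27.7 CPM, against 142 ± 4.99 CPM for P hearts (SD, n = 4 each), a log2 fold change of 0.40 (SE 0.091, 95% interval 0.20 to 0.60, edgeR adjusted p = 0.134), and 0.29 without multiparous 3 (adjusted p = 0.151). Herpud1 passed the threshold with DESeq2 (adjusted p = 0.00593) and, in edgeR, without the filter on low counts (adjusted p = 0.0230). These were 2 of 14 alternatives. DESeq2 called 295 of 18123 genes and the fit without the filter 389 of 33426, where the main fit called 22.

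Sdf2l1 measured 9.59, 7.57, 3.68 and 6.30 CPM in MP hearts, against 5.35, 4.97, 3.22 and 4.27 CPM in P hearts. In all, 3 MP libraries lay above every P library, and multiparous 6 lay among the P values; the difference was 0.61 on the log2 scale (SE 0.25, edgeR adjusted p = 0.408). Creld2 measured 13.1, 11.5, 6.40 and 9.82 CPM in MP hearts, against 8.01, 8.60, 6.26 and 7.71 CPM in P hearts, with the same library apart (log2 fold change 0.42, SE 0.19, edgeR adjusted p = 0.442). Without multiparous 3 the log2 fold changes were 0.39 for Sdf2l1 and 0.27 for Creld2 (adjusted p = 0.665 and 0.691).

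Manf measured 73.5, 55.7, 28.6 and 48.6 CPM in MP hearts, against 41.5, 46.3, 27.2 and 37.8 CPM in P hearts (a log2 fold change of 0.44, SE 0.24, edgeR adjusted p = 0.540). Hspa5 measured 792, 679.7, 453 and 637 CPM in MP hearts, against 537, 611, 487 and 451 CPM in P hearts (a log2 fold change of 0.30, SE 0.15, edgeR adjusted p = 0.493). Without multiparous 3 these were 0.21 for Manf and 0.18 for Hspa5 (adjusted p = 0.827 and 0.747). For both genes multiparous 6 was again the one MP library below the highest P value. The 5 transcription factors gave log2 fold changes from 0.02 (Atf3) to 0.25 (Ddit3), and that of Ddit3 was 0.04 without multiparous 6 and 0.37 without multiparous 3.

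Against virgin hearts, MP hearts had higher Herpud1, Manf, Sdf2l1, Hspa5 and Xbp1 at an unadjusted p under 0.05, 5 of the 10 genes against 8.65% of all genes tested. None of the 18442 genes tested passed the threshold, or 0.0%, by edgeR, where 1596 had an unadjusted p under 0.05, while DESeq2 called 118. Herpud1 averaged 187 CPM in MP and 139.8 CPM in virgin hearts (n = 4 and 8, log2 fold change 0.42, SE 0.077, edgeR adjusted p = 0.236). All 4 MP libraries lay above all 8 virgin ones, which held for 0.396% of all genes tested. Herpud1 passed the threshold with DESeq2 (adjusted p = 0.00109) and, in edgeR, when scaled by library totals (adjusted p = 0.0498). These were 2 of 18 alternatives, and the fit with library totals called 1 of 18442 genes. The log2 fold change was 0.63 for Manf (SE 0.19, edgeR adjusted p = 0.347), 0.62 for Sdf2l1 (SE 0.22, edgeR adjusted p = 0.417), 0.32 for Hspa5 (SE 0.12, edgeR adjusted p = 0.439) and 0.19 for Xbp1 (SE 0.081, edgeR adjusted p = 0.520). Without multiparous 3 they were 0.31 for Herpud1, 0.41 for Manf, 0.40 for Sdf2l1, 0.20 for Hspa5 and 0.12 for Xbp1, and 3 of the 10 genes had an unadjusted p under 0.05.

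Between P and virgin hearts, 9 of the 10 genes had log2 fold changes between -0.10 (Atf6) and 0.19 (Manf). Herpud1 gave 0.02 with a 95% interval of -0.09 to 0.13 (edgeR adjusted p = 0.949). Hspa5 gave 0.02 with an interval of -0.17 to 0.21 (edgeR adjusted p = 0.981). Atf3, at 2.78, 2.21, 2.86 and 2.63 CPM in P hearts, had a log2 fold change of -0.68 (SE 0.31, edgeR adjusted p = 0.595) and was the 1 gene of 10 with an unadjusted p under 0.05, against 8.29% of all genes. None of the 10 passed the threshold, against 97 of 18612 genes, or 0.521%. Leaving out any of 7 of the 12 libraries took Atf3 above an unadjusted p of 0.05.

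Other transcripts were also compared by code and by group. Of 12 genes known to be induced by glucocorticoids, 5 (Zbtb16, Fkbp5, Mt1, Mt2 and Lcn2) were higher in MP than in P hearts at an edgeR adjusted p under 0.05, against 0.121% of all genes tested that passed it in either direction. The summed level of the 12 ranged from 641 to 796 CPM in MP, from 449 to 548 CPM in P and from 502 to 686 CPM in virgin hearts. Multiparous 3 was the highest of all 16 libraries for this sum and for the 10 mesothelial markers, which ranged from 25.2 to 42.5 CPM in MP, from 8.18 to 30.6 CPM in P and from 8.94 to 33.2 CPM in virgin hearts. The 10 fibroblast markers summed to 1463 to 2218 CPM in multiparous and 1351 to 1854 CPM in virgin hearts. Between these groups 8 of them had a log2 fold change above 0 and 2 below, with a median of 0.17. An unadjusted p under 0.05 was reached by 4 of the 10, all higher, against 8.12% of all genes tested. Between MP and virgin hearts their median was 0.24, and 4 had an unadjusted p under 0.05, against 8.65% of all genes. Between P and virgin hearts their median was 0.11, and 3 had an unadjusted p under 0.05, all higher, against 8.29% of all genes. Between MP and P hearts 0 of the 10 did, against 11.0% of all genes. The 10 macrophage markers summed to 267 to 411 CPM in MP, 238 to 299.5 CPM in P and 214 to 414 CPM in virgin hearts. All 10 had log2 fold changes above 0 between MP and P hearts, with a median of 0.27, and 2 had an unadjusted p under 0.05, against 11.0% of all genes tested. Endothelial markers (9 genes) summed to 1372 to 1593 CPM in multiparous and 1377 to 1602 CPM in virgin hearts, and those of smooth muscle and pericytes (9 genes) to 1681 to 1953 CPM in multiparous and 1329 to 1892 CPM in virgin hearts. The 15 plasma cell markers, a secretory cell type with a strong response of this kind, summed to 68.5 to 178 CPM in multiparous and 63.8 to 332 CPM in virgin hearts. Kidney tubule markers (15 genes) summed to 18.4 to 37.9 CPM in MP, 11.9 to 18.6 CPM in P and 21.7 to 129 CPM in virgin hearts. At an edgeR adjusted p under 0.05, 3 of 8 tested (Kap, Umod and Slc34a1, named after their values were seen) were higher in MP than in P hearts, against 0.121% of all genes passing in either direction. At the same threshold 7 of 13 were lower in P than in virgin hearts, against 0.521% of all genes. Liver markers (10 genes) summed to 6.97 to 38.1 CPM in MP, 4.99 to 329 CPM in P and 3.86 to 229 CPM in virgin hearts. All 10 had log2 fold changes below 0 between MP and P hearts, with a median of -3.72. Of these, 10 had an unadjusted p under 0.05, against 11.0% of all genes tested, and 0 an edgeR adjusted p under 0.05. Between P and virgin hearts 6 of the 10 were called higher, against 0.521% of all genes called in either direction. None of these markers was at 0 in every library. With the kidney marker level as a covariate, the log2 fold change between multiparous and virgin hearts was 0.40 for Herpud1 (edgeR adjusted p = 0.659), 0.85 for Manf (adjusted p = 0.524) and 0.55 for Creld2 (adjusted p = 0.761). In that fit 6 of the 10 genes had an unadjusted p under 0.05, against 1046 of the 17813 genes tested. All 12 kidney markers tested had log2 fold changes below 0 between multiparous and virgin hearts, so this fit cannot separate the covariate from the groups. The part of the other markers in the differences was not tested.

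The 10 genes did not vary as 1 block. Correlations are of log2(CPM + 0.5) over the 16 libraries, which differ in depth and fall into the study's groups, and 45 pairs were computed. The permutations shuffled all 16 libraries without regard to code or group, so a difference between groups that 2 genes share also enters their p-values. Hspa5, Manf, Creld2 and Sdf2l1 varied together, with Pearson's r from 0.85 to 0.97 over their 6 pairs. Without the 2 libraries farthest from the median of the first gene of a pair, r was 0.66 for Hspa5 and Sdf2l1, the lowest of the 6, and 0.69 for Hspa5 and Creld2. The r stayed between 0.78 and 0.97 after the mean of each library code was subtracted. Creld2 and Sdf2l1 were the most alike pair, with r = 0.97 and Spearman's rho = 0.94 (permutation p = 1e-05, the smallest that 100000 resamples can give, and p = 1e-05, adjusted over the 45 pairs to 0.000112 and 0.00045). Without the 2 libraries farthest from the median of Creld2, r was 0.94. Manf and Hspa5 gave r = 0.92 and rho = 0.87 (permutation p = 1e-05 and 6e-05, adjusted to 0.000112 and 0.000675), and r = 0.85 without the 2 libraries farthest in Manf.

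Herpud1 followed this set less tightly, and its r fell further when libraries were left out. With Hspa5 it gave r = 0.76 and rho = 0.55 (permutation p = 0.00133 and 0.0293, adjusted to 0.00499 and 0.0732), and r = 0.46 without the 2 libraries farthest in Herpud1. With Sdf2l1 it gave r = 0.63 and rho = 0.35 (permutation p = 0.0096 and 0.184, adjusted to 0.027 and 0.306), and r = 0.19 without the 2 farthest. Leaving out the libraries farthest in 1 gene narrows its range, which by itself tends to lower r. Xbp1 stood near the chaperones, with r = 0.86 and rho = 0.81 to Manf (permutation p = 3e-05 and 0.00029, adjusted to 0.000257 and 0.00186) and 0.74 without the 2 libraries farthest in Manf. Atf3 and Ddit3 followed no chaperone: the highest r of Ddit3 with any of the 9 others was 0.07, and that of Atf3 was 0.62, with Atf4. After the mean of each library code was subtracted, Ddit3 gave r = -0.72 with Herpud1 and -0.61 with Hspa5, from 0.01 and -0.24 before. Atf4 then gave 0.76 with Creld2 and 0.77 with Sdf2l1, from 0.64 and 0.58. Atf6 gave 0.72 with Hspa5, from 0.55.

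**Figure D3:**
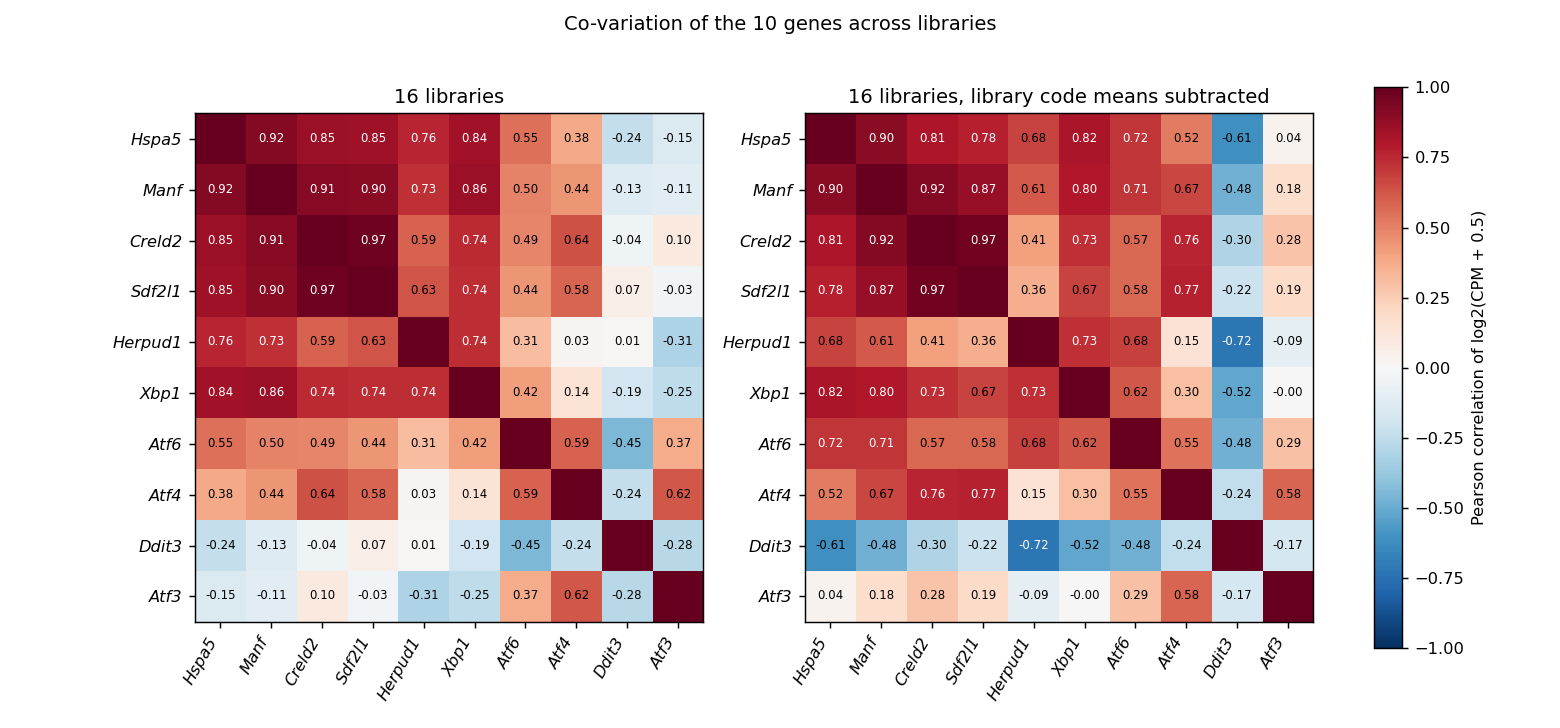
Pearson correlation of log2(CPM + 0.5) for each pair of the 10 genes over 16 libraries, as computed (left) and after subtraction of each library code's mean (right), on a colour scale from -1 to 1. Hspa5, Manf, Creld2 and Sdf2l1 form a block of 0.78 to 0.97 in both panels, and Ddit3 is at or below 0.07 with the 9 others.

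The genes most like a given member over the 16 libraries, the 10 genes themselves left out, were ranked among 14172 genes. For Hspa5 they were Hsp90b1, the reticulum's HSP90 chaperone (r = 0.95), Hyou1, a large HSP70-like chaperone of the reticulum (0.95), Magt1, a subunit of oligosaccharyltransferase (0.92), and Pdia3, a disulfide isomerase (0.91). For Atf4 the nearest were Hdgf, Pgpep1, Hnrnpab and Ubxn4 (0.81 to 0.86), and for Atf3 they were Cct4, Ackr3, Prmt5 and Nmt1 (0.77 to 0.78). These were chosen as the highest of many, so the values describe likeness and are not tested.

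The rest of the pathway was described through lists of related genes, none of them holding a gene called in any of the 4 comparisons. Ppp1r15a, Trib3, Dnajb11, Dnajc3, Edem1 and Edem2 each stand on more than 1 of these lists, and the plasma cell markers Derl3 and Txndc5 also stand on those of degradation and folding. Among 30 chaperones and folding enzymes of the reticulum, 25 had a log2 fold change above 0 between multiparous and virgin hearts, with a median of 0.04 against -0.003 over all genes. An unadjusted p under 0.05 was reached by 2 of the 30 (Hyou1 and Ero1lb, an oxidase that forms disulfides), against 8.12% of all genes tested. Hyou1 averaged 100.1 CPM in multiparous hearts against 87.4 CPM in virgin ones (a log2 fold change of 0.20, SE 0.091, edgeR adjusted p = 0.602, and 0.12 without multiparous 3). Between MP and virgin hearts 8 of the 30 had an unadjusted p under 0.05, all higher, against 8.65% of all genes tested. Among them were Hyou1, Hsp90b1, Pdia3, Pdia4 and Ero1lb, with log2 fold changes of 0.33, 0.22, 0.20, 0.32 and 0.40. The 30 genes summed to 2047 to 2623 CPM in MP hearts, highest in multiparous 3, and to 2046 to 2322 CPM in virgin hearts. Hsp90b1, Hyou1 and Pdia3 each varied closely with Hspa5, so these genes are not separate observations. Between P and virgin hearts 0 of the 30 had an unadjusted p under 0.05, against 8.29% of all genes tested. Of the 30, 17 had a log2 fold change above 0, and the median was 0.01. Between MP and P hearts 26 of the 30 had one above 0, with a median of 0.10, and 5 had an unadjusted p under 0.05, all higher, against 11.0% of all genes tested.

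Of 29 targets of IRE1 and XBP1, 16 had a log2 fold change above 0 between multiparous and virgin hearts (median 0.01). Dnajb9 and Pdia5 had an unadjusted p under 0.05, against 8.12% of all genes tested. Dnajb9, a co-chaperone of BiP that damps IRE1, averaged 57.8 CPM in MP, 45.0 CPM in P and 43.8 CPM in virgin hearts. Its log2 fold change was 0.37 between MP and P hearts (SE 0.14, edgeR adjusted p = 0.380, and 0.20 without multiparous 3) and 0.41 between MP and virgin hearts (SE 0.12, adjusted p = 0.341). Of the genes of reticulum-associated degradation, 11 of 26 had a log2 fold change above 0 between multiparous and virgin hearts (median -0.01). Sel1l, the adaptor of the HRD1 ubiquitin ligase complex, was the 1 gene among them with an unadjusted p under 0.05, against 8.12% of all genes tested. It averaged 119.8 CPM in multiparous hearts against 112 CPM in virgin ones (a log2 fold change of 0.10, SE 0.036, edgeR adjusted p = 0.454). Between MP and virgin hearts 4 of 27 (Sel1l, Syvn1, Os9 and Selenos) had an unadjusted p under 0.05, all higher, against 8.65% of all genes tested.

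Of 17 sensors and their regulators other than the 10 genes, 9 had a log2 fold change above 0 between multiparous and virgin hearts (median 0.01). Creb3l2, a membrane-bound factor related to ATF6, measured 65.1 to 75.1 CPM in multiparous hearts with a median of 66.5, against 59.7 to 64.9 CPM with a median of 62.9 in virgin hearts. The groups did not overlap, which held with the multiparous group higher for 0.0168% of all genes tested. The log2 fold change was 0.13 (SE 0.034, edgeR adjusted p = 0.207). Eif2ak3, which encodes PERK, averaged 15.4 CPM in multiparous hearts against 14.5 CPM in virgin ones (a log2 fold change of 0.09, SE 0.034, edgeR adjusted p = 0.491). Between MP and P hearts Creb3l1, another such membrane-bound factor, averaged 5.30 CPM in MP hearts against 7.05 CPM in P ones with no overlap, which held with MP lower for 2.92% of all genes (log2 fold change -0.41, SE 0.13, edgeR adjusted p = 0.258).

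Of 31 targets of ATF4 and the integrated stress response, 16 had a log2 fold change above 0 between multiparous and virgin hearts, with a median of 0.00. Slc7a1, a transporter of cationic amino acids, averaged 96.4 CPM in multiparous hearts against 73.5 CPM in virgin ones (a log2 fold change of 0.39, SE 0.10, edgeR adjusted p = 0.190). It passed the threshold with DESeq2 (adjusted p = 0.0298), with the replicate number as a block (adjusted p = 0.0268) and without virgin 7 (adjusted p = 0.0333). These were 3 of 24 alternatives, over which the adjusted p of Slc7a1 reached 0.910. The same 3 settings called 128, 33 and 55 of all genes, in place of 2. Gars and Shmt2, a glycine transfer RNA synthetase and a mitochondrial serine hydroxymethyltransferase, gave log2 fold changes of -0.10 each (edgeR adjusted p = 0.351 and 0.400). Psat1, an enzyme of serine synthesis, averaged 2.93 CPM in MP hearts against 1.94 CPM in P ones (a log2 fold change of 0.59, SE 0.16, edgeR adjusted p = 0.205). Aldh1l2, also on this list, went the other way between the codes, with a log2 fold change of -0.36. In that comparison 24 of the 31 genes had a log2 fold change above 0 and 7 below, with a median of 0.07. At an unadjusted edgeR p under 0.05, 4 were higher and 1, Aldh1l2, was lower, against 11.0% of all genes tested. Of 11 genes tied to death under reticulum stress, 1 (Bcl2l11, the death promoter BIM) had an unadjusted p under 0.05 between multiparous and virgin hearts (a log2 fold change of 0.17, SE 0.081, edgeR adjusted p = 0.607), against 8.12% of all genes tested.

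**Figure D4:**
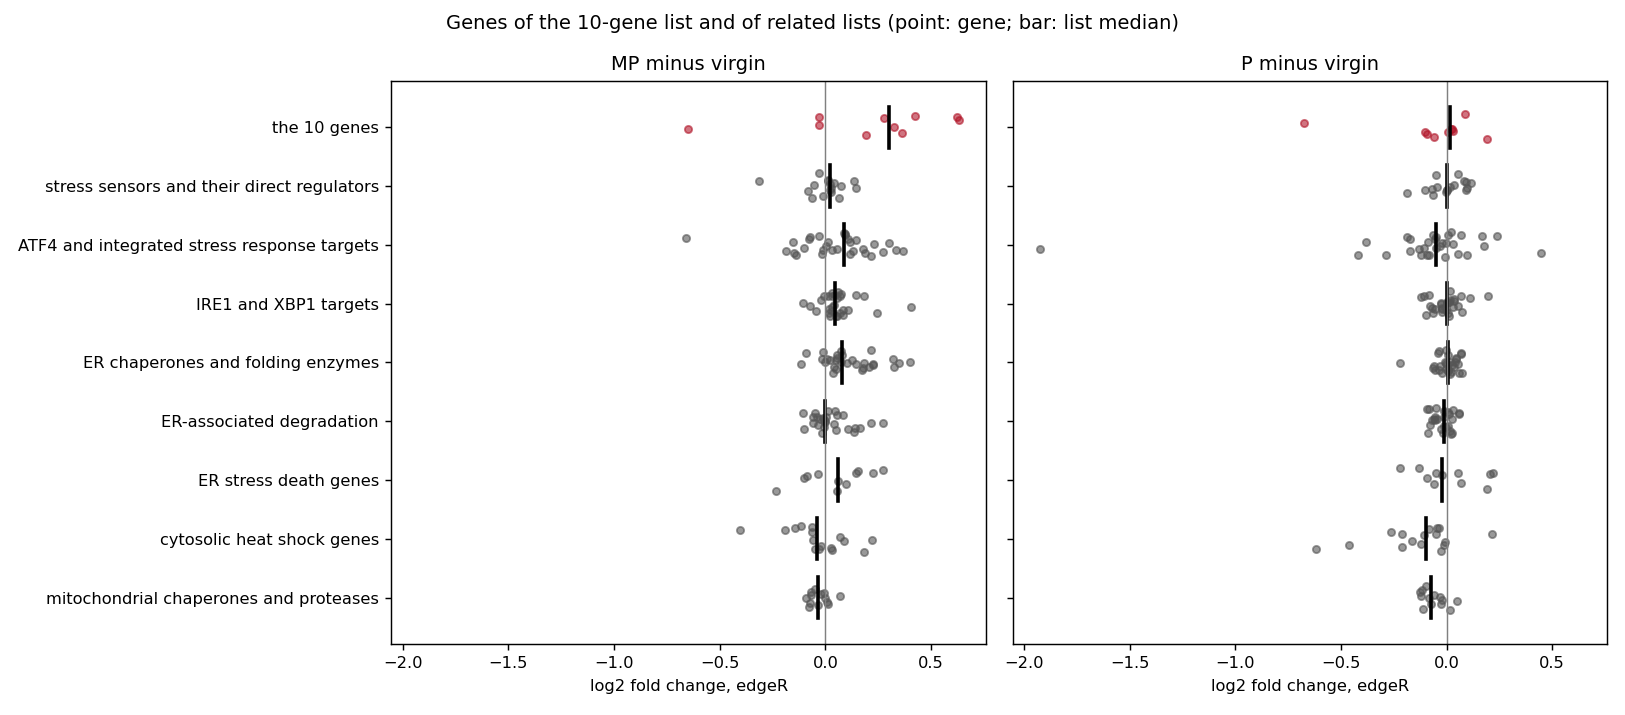
Log2 fold change of each gene (points) and list median (bars) for MP against virgin hearts (left) and P against virgin hearts (right), which share the virgin libraries; the 10 genes are in red and are left out of the other lists. The median of the 10 genes is 0.30 on the left and 0.01 on the right, and those of the chaperones and folding enzymes are 0.08 and 0.01.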

How the data were processed

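RNA of 16 libraries was sequenced after ribosomal RNA removal with a stranded kit, per the labels' protocols. The submitters' processing notes name STAR 2.7.11b, HTSeq 0.11.1, SAMtools 1.19.2, cutadapt 4.8, Trim Galore 0.6.10, bcl2fastq 2.20, FastQC 0.12.1 and GRCm38.p6. The sources used here state neither annotation release nor counting strand. What the authors deposited is 1 table of raw counts per library. Reads assigned to no gene, 26.5% to 33.1% per library, stayed out of totals and tests.

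The test was that of edgeR 4.0.16 under R 4.3.3 (TMM, filterByExpr, quasi-likelihood F-test, Benjamini-Hochberg adjustment over all genes tested, threshold 0.05), and the fit was tested on simulated data for multiparous against virgin and MP against P hearts. SE come from the F statistic. A count of 0 allows up to 3 counts, 0.0134 to 0.0844 CPM by library; floors cover counting error only. Exon lengths, coordinates and overlaps are from GENCODE M21, to which 99.53% of genes matched. Alternatives were DESeq2 1.42.0, limma 3.58.1 voom, other factors, no filter, 1 fit of all codes, a replicate block, a kidney covariate and leaving out each library.

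The 10 genes and the 20 lists were chosen with earlier results of these data known. Beside the 10 genes, the rule names from each pathway list up to 3 genes with the smallest p between multiparous and virgin hearts and up to 2 between MP and P hearts, the 4 genes most like Hspa5, Atf4 and Atf3, and the 2 highest of each marker list. The 5 glucocorticoid-induced genes were named after their values were seen. Lists were described by counts and medians only. Every one of the 56 pairs of same-group libraries differed beyond sampling noise (chi-square over degrees of freedom at least 9.85).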

Additional observations from a re-analysis of the deposited data

Results flagged for a closer look

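Each of the 10 genes was checked in multiparous, virgin, MP and P hearts for a library far from the others by Dixon's ratio, 40 groups in all. Chance flags about 1 group in 20, and 2 were found. Herpud1 in virgin 6, at 160.7 CPM, stood above the next virgin library at 140.6 CPM, with a gap of 0.713 of the range over the 8 virgin libraries. Without virgin 6, the log2 fold change of Herpud1 was 0.45 between MP and virgin hearts (edgeR adjusted p = 0.0935) and 0.27 between multiparous and virgin hearts (adjusted p = 0.413). Atf3 in multiparous 4, at 2.941 CPM, stood above the next MP library at 2.616 CPM, with a gap of 0.830 of the range over the 4 MP libraries.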

How the results depend on the processing

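No gene of the 10 passed the threshold between multiparous and virgin hearts or between P and virgin hearts under any alternative run. Between MP and P hearts 1 did, Herpud1, without the filter and with DESeq2, and between MP and virgin hearts 1, again Herpud1, with library totals and with DESeq2. Leaving out 1 library at a time gave 0 of the 10 in all comparisons.

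Counts of all genes past the threshold moved more. Between multiparous and virgin hearts, 2 became 0 with library totals, 56 without a filter, 128 with DESeq2, 72 with the codes in 1 fit, 0 with the kidney covariate and 0 (without multiparous 1) to 55 (without virgin 7) on leaving out a library. Between MP and P hearts, 22 became 7, 389 and 295 under the first 3 of these, 13 with limma voom, 2 in the 1 fit and 3 to 197 on leaving out a library. Between MP and virgin hearts, 0 became 1 with library totals, 118 with DESeq2, 1 in the 1 fit and 0 to 5 on leaving out a library. Between P and virgin hearts, 97 became 229 without a filter, 240 with DESeq2, 1 with limma voom, 166 in the 1 fit and 0 to 170 on leaving out a library. The cause of these moves was not tested.

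Same-numbered libraries of the 2 groups showed little shared deviation (correlations of -0.134 to 0.171, 2 of 8 pairs over 0.1). The numbers were not treated as pairs, but such values cannot tell a weak pairing from none. A fit with the replicate block called 33 genes in place of 2, and 0 of the 10.

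Depth limits Atf3 most, at 93 reads in its shallowest library. Signs turned for the following log2 fold changes. The log2 fold change of Eif2s1 between multiparous and virgin hearts was 0.00694 with the kidney covariate in place of -0.07, and that of Atf6 between MP and virgin hearts 0.00138 with library totals in place of -0.03. Leaving out 1 library gave -0.0488 to 0.0704 for Atf3 and -0.0240 to 0.115 for Atf6 between MP and P hearts, and -0.0772 to 0.0275 for Atf4 and -0.122 to 0.0237 for Atf6 between MP and virgin hearts. Between P and virgin hearts it gave -0.121 to 0.0247 for Creld2, -0.0182 to 0.0981 for Ddit3, -0.0660 to 0.0846 for Hspa5 and -0.0933 to 0.137 for Sdf2l1.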

Other observations

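Chaperones outside the endoplasmic reticulum were also listed, and none passed the threshold (edgeR adjusted p under 0.05) between multiparous and virgin hearts. The median log2 fold change over all genes tested was -0.003. Of 16 cytosolic heat shock genes, 11 had a log2 fold change below 0, with a median of -0.05, and 4 had an unadjusted p under 0.05, against 8.12% of all genes tested. Hspa1l, an HSP70 chaperone, averaged 6.63 CPM in multiparous hearts against 9.43 CPM in virgin ones (log2 fold change -0.51, SE 0.12, edgeR adjusted p = 0.154), and it passed the threshold with DESeq2 (adjusted p = 0.0178) and without virgin 7 (adjusted p = 0.0399). These were 2 of 24 alternatives, over which the adjusted p of Hspa1l reached 0.581. The same 2 settings called 128 and 55 of all genes, in place of 2. Hsp90aa1, an inducible cytosolic HSP90, averaged 95.4 CPM in multiparous hearts against 112 CPM in virgin ones (log2 fold change -0.23, SE 0.066, edgeR adjusted p = 0.266). Dnajb1, a co-chaperone of HSP70, had the opposite sign, at 13.5 CPM in multiparous hearts against 11.6 CPM in virgin ones (log2 fold change 0.22, SE 0.060, edgeR adjusted p = 0.239). HSP70 genes are near-identical in part, so their counts are uncertain where reads could be split between copies.

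Of 13 chaperones and proteases of mitochondria, 11 had a log2 fold change below 0 between multiparous and virgin hearts, with a median of -0.06. Grpel1, a nucleotide exchange factor of the mitochondrial HSP70, averaged 45.1 CPM in multiparous hearts against 48.2 CPM in virgin ones (log2 fold change -0.10, SE 0.042, edgeR adjusted p = 0.563). Hspa9, the mitochondrial HSP70 itself, averaged 679 CPM in multiparous hearts against 725 CPM in virgin ones (log2 fold change -0.10, SE 0.049, edgeR adjusted p = 0.659).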
